A study of Rattus norvegicus with 6 samples.

Results

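The miRNAs of the miR-17 to miR-92a and miR-106b to miR-25 clusters were examined in small RNA sequencing of rat sertoli cells, the somatic cells that nourish germ cells in the seminiferous tubule. They were chosen by name. Every counted mature miRNA of rno-miR-17, rno-miR-18a, rno-miR-19a, rno-miR-19b, rno-miR-20a and rno-miR-92a was grouped with the miR-17 to miR-92a cluster. Those of rno-miR-106b, rno-miR-93 and rno-miR-25 were grouped with the miR-106b to miR-25 cluster. These 9 names cover 21 of the 734 mature miRNAs in the count table, 15 under the names of the first cluster and 6 under those of the second. Each hairpin can release a 5p and a 3p arm, and 3 of the 15 (miR-17-2-3p, miR-19b-2-5p and miR-92a-2-5p) are arms of X-linked paralogues that share a name with the first cluster. By the study's methods, the cells were primary sertoli cells from the testes of prepubertal Sprague-Dawley rats, treated with 0.5 mM 4-nonylphenol (4-NP, an alkylphenol that mimics estrogen) or left without it, for 24 h. There were 3 control and 3 4-NP samples. The labels do not say that the samples came from separate cultures or animals, so p-values measure only the spread between these samples. The sums of reads on mature miRNAs were 22291892 to 23426742 in the controls and 20023200 to 22130929 after 4-NP. Levels are given as CPM, the counts-per-million scale relative to that sum. The counts are of reads and not of molecules, so intervals and limits from counts cover counting error only.

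Both clusters are transcribed as single primary RNAs from which Drosha cuts several hairpins, and Dicer then trims each hairpin to a short duplex of its arms. The miR-17 to miR-92a cluster is driven by Myc and E2F factors and is known for promoting proliferation and survival, and the miR-106b to miR-25 cluster lies within Mcm7, which encodes a subunit of the replicative DNA helicase. In the GRCr8 assembly the genes of the first cluster follow each other as Mir17, Mir18a, Mir19a, Mir20a, Mir19b1 and Mir92a1, and those of the second as Mir106b, Mir93 and Mir25, all within Mcm7. A paralogous cluster on the X chromosome holds Mir106a, Mir20b, Mir19b2, Mir92a2 and Mir363.

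The guide arms, the abundant arm of each hairpin, fall into 4 families by the seed, bases 2 to 8, which pairs with target mRNAs. Their RefSeq sequences (GRCr8 build, read 5′ to 3′) are shown so that the families can be compared, with the seed in capitals.
miR-17-5p: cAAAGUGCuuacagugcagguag
miR-20a-5p: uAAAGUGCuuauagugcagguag
miR-93-5p: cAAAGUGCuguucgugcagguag
miR-106b-5p: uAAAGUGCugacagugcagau
miR-18a-5p: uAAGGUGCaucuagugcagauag
miR-19a-3p: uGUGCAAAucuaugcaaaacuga
miR-19b-3p: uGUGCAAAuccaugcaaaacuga
miR-92a-3p: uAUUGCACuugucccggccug
miR-25-3p: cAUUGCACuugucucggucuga

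The miR-17 seed was shared by 4 members of both clusters, and the seed of miR-25 and miR-92a by 1 member of each, whereas the miR-18 and miR-19 seeds were carried in the first cluster. miR-17-5p and miR-20a-5p differ by C1U and C12U, counted from the 5′ end of miR-17-5p, and miR-19a-3p and miR-19b-3p differ by U11C alone. Reads of such near-identical miRNAs may have been split between them by the authors' counting, so the level of each is less certain than the level of its family. In RefSeq, 3 of the 9 guide arms are made by a second, X-linked gene with the same mature sequence. These are miR-17-5p (Mir106a), miR-19b-3p (Mir19b2) and miR-92a-3p (Mir92a2).

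The members together held 0.347%, 0.345% and 0.359% of the mature miRNA reads in control samples 1, 2 and 3, and 0.476%, 0.474% and 0.472% after 4-NP. All 3 4-NP samples were above all 3 controls, and the samples of each group lay close together. That closeness is for scaling to the mature sum only, since the TMM factors used in the tests (0.947 to 1.09) were not applied here. The summed guide arms were at 3476 ± 79.2 CPM in control cells and 4708 ± 16.3 CPM in 4-NP cells (± SD, n = 3 each), 1.35 times the control mean. Guide arms made up 99.1 to 99.3% of the members' reads in the 6 samples. The sum was not tested, since it is a score over miRNAs chosen with earlier results known, and each miRNA was tested on its own. As these are bulk samples, a change in the cells present and a change in the RNA of each cell cannot be told apart.

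**Figure D1:**
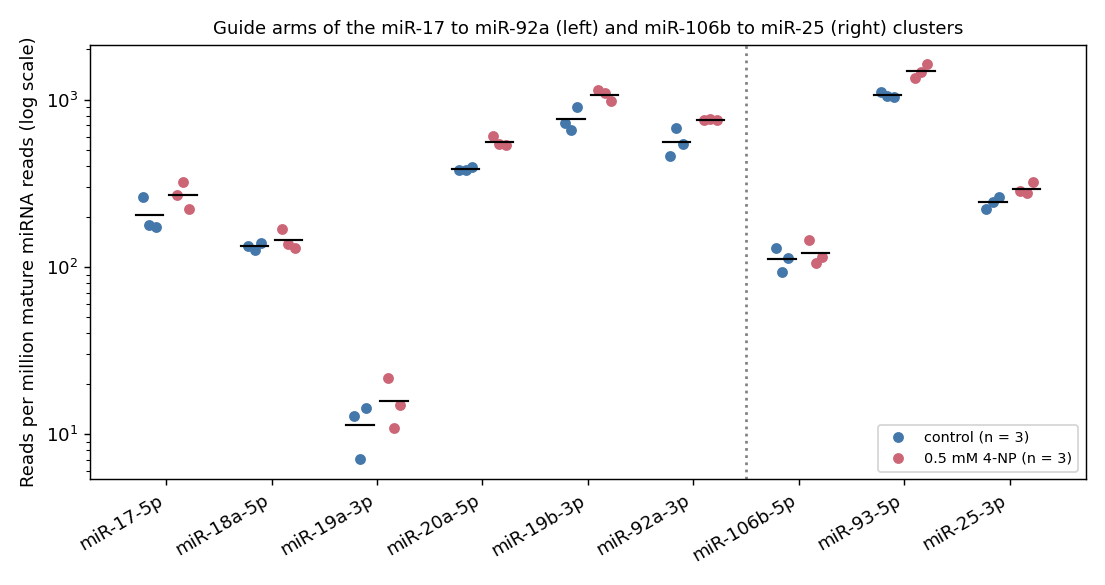
Level of each guide arm in CPM of mature miRNA reads, on a log scale, with 1 point per sample (3 controls in blue, 3 samples treated with 0.5 mM 4-NP in red) and the group mean as a line. The 4-NP points of miR-20a-5p, miR-19b-3p, miR-92a-3p, miR-93-5p and miR-25-3p lie above all their control points, and those of the other 4 guide arms overlap.

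edgeR's quasi-likelihood test kept 18 of the 21 members after the filter on low counts, 12 of the first cluster and 6 of the second, and tested them among 549 miRNAs. At a Benjamini-Hochberg adjusted p under 0.05, 1 member was higher after 4-NP (miR-20a-5p) and 0 were lower, while 7.47% of all tested miRNAs were called higher and 12.8% lower. At an unadjusted p under 0.05, 6 members were higher and 0 were lower in edgeR, against 15.5% and 20.2% of all tested miRNAs, and DESeq2 also called 0 lower at an adjusted p under 0.05. Members had a median log2 fold change of 0.36, against -0.02 over all 549 tested miRNAs. Of the 18 tested members, 16 had a log2 fold change above 0 and 2 (miR-19a-5p and miR-93-3p) below it. All 4-NP samples lay above all controls for 8 members and below them for 0, against 19.9% of all tested miRNAs above and 22.6% below. Here and below, overlap was judged on CPM without the TMM factors used in the test. The 3 members that were not tested had at most 3 reads in any sample.

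The member that passed the threshold was miR-20a-5p, a miR-17 family member known to repress E2f1 and the cell cycle inhibitor Cdkn1a. It had 378, 381 and 393 CPM in control cells and 609, 539.8 and 533 CPM in 4-NP cells. In CPM, the controls differed little from each other and all 4-NP samples were well above them. The test also applied TMM factors, which ran from 0.947 to 1.09 over the controls. miR-20a-5p rose 1.44-fold (log2 fold change 0.52 ± 0.12 SE, edgeR adjusted p = 0.0291). The call was lost without control replicate 1 (adjusted p = 0.0748), control replicate 2 (adjusted p = 0.0810) or 4-NP replicate 1 (adjusted p = 0.0603) in edgeR, with a replicate block (0.0630) and with the classic exact test (0.213). It was kept in the other 8 of the 13 alternative fits. Their adjusted p ran from 2.95e-05 with DESeq2 to 0.0482 without 4-NP replicate 3 in edgeR.

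The most abundant members gave ratios of similar size but did not pass the adjusted threshold. miR-93-5p, of the same family and the leading miRNA of the second cluster, had 1111, 1053 and 1030.0 CPM in control cells and 1336, 1464 and 1622 CPM in 4-NP cells. miR-19b-3p, the leading miRNA of the first cluster, had 725, 662 and 902 CPM against 1139, 1094 and 979. miR-92a-3p, of the family known to repress the pro-apoptotic Bim (Bcl2l11), had 461, 680.2 and 540.4 CPM in control cells and 754, 762 and 758 after 4-NP. In each of these 3 miRNAs the groups did not overlap, and in CPM the controls of miR-92a-3p were spread far more widely than its 4-NP samples. The log2 fold changes were 0.45 ± 0.15 (SE, edgeR adjusted p = 0.0768) for miR-93-5p, 0.45 ± 0.18 (SE, edgeR adjusted p = 0.121) for miR-19b-3p and 0.43 ± 0.14 (SE, edgeR adjusted p = 0.0741) for miR-92a-3p. DESeq2 placed all 3 under 0.05, at adjusted p values of 0.0166, 0.0366 and 0.0271. With scaling to the sum of mature reads in place of TMM, edgeR also did so for miR-93-5p (adjusted p = 0.0299). Without 4-NP replicate 1 the edgeR adjusted p of miR-93-5p was 0.0497, and without control replicate 3 that of miR-19b-3p was 0.0352. With any other sample omitted, that of miR-93-5p was 0.0804 to 0.191 and that of miR-19b-3p 0.124 to 0.229. No omission brought miR-92a-3p under 0.05 (0.0722 to 0.191). For miR-93-5p, miR-19b-3p and miR-92a-3p in turn, edgeR's classic exact test gave adjusted p values of 0.335, 0.358 and 0.351. The edgeR fit with a replicate block gave 0.129, 0.153 and 0.102.

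miR-25-3p, which shares the seed of miR-92a-3p and was the remaining guide arm without overlap, had 223, 245 and 262 CPM in control cells and 284, 278 and 320.0 CPM in 4-NP cells. The gap between the groups was narrow, and scaling by the TMM factors of the test closes it. These factors were 0.947 for control replicate 3 and 1.05 for 4-NP replicate 1, so the lack of overlap holds for CPM only. The log2 fold change was 0.26 ± 0.15 (SE, edgeR adjusted p = 0.269).

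The other 4 guide arms overlapped between the groups. miR-17-5p, a close relative of miR-20a-5p and named for the family, had 263, 178 and 172 CPM in control cells and 268, 319 and 220.5 CPM in 4-NP cells, with control replicate 1 apart from the other two. Its log2 fold change was 0.36 ± 0.24 (SE, edgeR adjusted p = 0.307). miR-18a-5p, of the family known to repress the estrogen receptor gene Esr1, had 133, 126 and 139.6 CPM against 168, 137 and 129, and miR-106b-5p had 129.5, 93.3 and 114 CPM against 144, 105 and 114. For both, the SD of the 4-NP samples exceeded the difference between the means. Their log2 fold changes were 0.09 ± 0.15 (SE, edgeR adjusted p = 0.726) and 0.07 ± 0.21 (SE, edgeR adjusted p = 0.829). miR-19a-3p was the least abundant guide arm, at 12.8, 7.10 and 14.4 CPM in control cells and 21.7, 10.8 and 15.0 CPM in 4-NP cells, with a log2 fold change of 0.42 ± 0.37 (SE, edgeR adjusted p = 0.460).

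**Figure D2:**
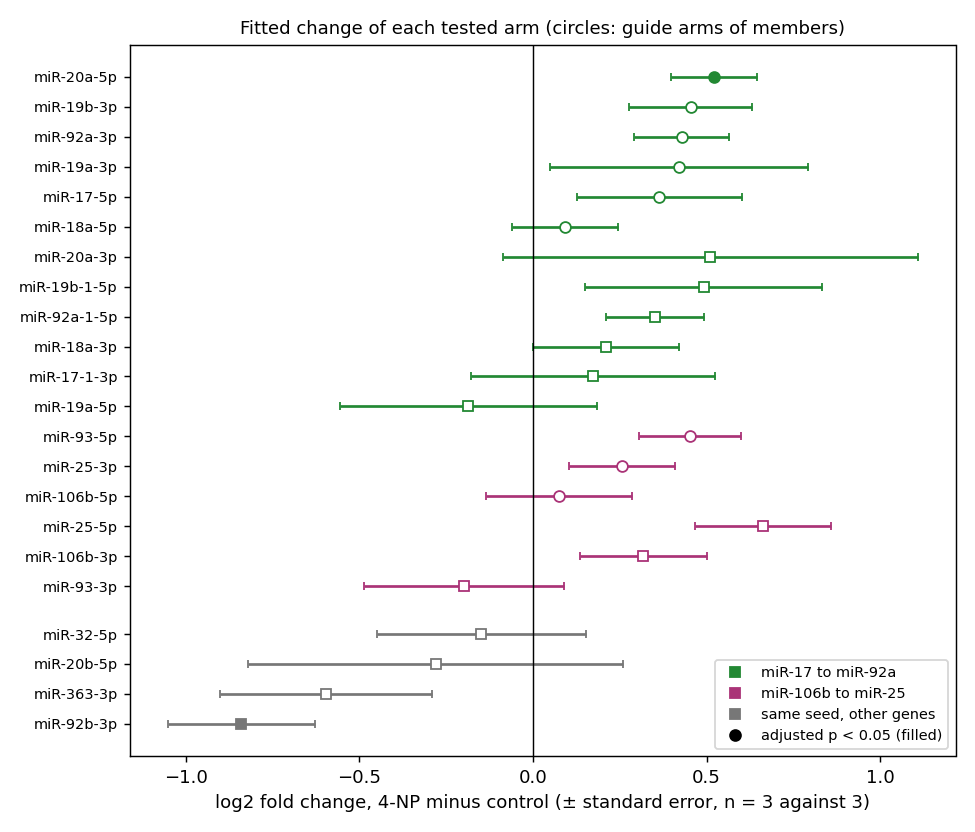
Fitted log2 fold change after 4-NP with its standard error (3 samples against 3) for the 18 tested members, coloured by cluster, and for 4 other miRNAs with a member's seed (grey), where filled symbols have an adjusted p under 0.05. All guide arms of the members (circles) lie to the right of 0 and the 4 grey miRNAs to the left, with miR-20a-5p and miR-92b-3p filled.

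Although the miRNAs of a cluster start from one primary RNA, their levels differed widely. Averaged over the 6 samples, miR-93-5p was the highest guide arm at 1269 CPM, which ranked 39 among all mature miRNAs. It was followed by miR-19b-3p at 917, miR-92a-3p at 659, miR-20a-5p at 472, miR-25-3p at 269, miR-17-5p at 237, miR-18a-5p at 139, miR-106b-5p at 117 and miR-19a-3p at 13.6 CPM. Each was above the next in all 6 samples except at 2 places in this order. miR-19b-3p exceeded miR-92a-3p in 5 samples, and miR-25-3p exceeded miR-17-5p in 4. miR-19b-3p had 52.5 to 101 reads for each read of miR-19a-3p, from which it differs by 1 base. These are levels of sequenced reads, and ligation and amplification can favour some sequences over others.

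Within the miR-17 to miR-92a cluster, the share of miR-18a-5p in the guide reads was 6.74%, 6.21% and 6.46% in the controls and 5.67%, 4.79% and 4.90% after 4-NP, without overlap. It is the one guide arm of either cluster whose share was lower in all 4-NP samples than in all controls, and for the other 8 the shares overlapped. No test was made of the shares, and they were not set beside shares within other clusters. The separation of miR-18a-5p therefore cannot be judged against a background. miR-19b-3p held 37.0 ± 4.60% of the guide reads of its cluster in the controls and 37.9 ± 0.703% after 4-NP, and miR-93-5p held 75.0 ± 1.45% and 78.0 ± 1.95% of those of its own (SD, n = 3 each).

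The clusters were compared with each other within a sample, where the scaling of libraries cancels. The guide arms of the miR-17 to miR-92a cluster summed to 1972, 2035 and 2162 CPM in control cells and 2959, 2863 and 2635 CPM in 4-NP cells. Those of the miR-106b to miR-25 cluster summed to 1463, 1391 and 1405 CPM and then to 1765, 1847 and 2056 CPM. Both sums were higher in every 4-NP sample than in any control, with ratios of the means of 1.37 and 1.33. The ratio of the second cluster to the first was 0.742, 0.683 and 0.650 in the controls and 0.596, 0.645 and 0.780 after 4-NP, so the groups overlapped. On the log2 scale it was -0.53 ± 0.10 in the controls and -0.58 ± 0.20 after 4-NP (SD, n = 3 each), a difference of -0.05, which is smaller than the spread of either group. The difference ran from -0.16 without 4-NP replicate 3 to 0.04 without 4-NP replicate 1.

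The seed families were summed over all counted miRNAs that carry a seed, members or not. RefSeq sequences were matched to 606 of the 673 known names, and the seeds of the other 67 were not searched. The miR-17 family (5 carriers) had 1768 ± 102 CPM in control cells and 2427 ± 67.5 CPM in 4-NP cells, and the miR-19 family (2 carriers) had 774 ± 128 and 1086 ± 84.8 CPM (SD, n = 3 each). The miR-25 and miR-92 family (5 carriers) had 985 ± 91.0 and 1218 ± 56.0 CPM. In these 3 families the groups did not overlap. The miR-18 family, with miR-18a-5p as its single counted carrier, had 133 ± 6.70 and 145 ± 20.3 CPM and overlapped. miR-93-5p alone made up 56.6 to 65.1% of the miR-17 family per sample, so the second cluster supplied most reads of that seed. Of the reads with the AUUGCAC seed, 51.8 to 65.4% were of miR-92a-3p, which both Mir92a1 and Mir92a2 make, and 22.3 to 26.4% were of miR-25-3p.

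**Figure D3:**
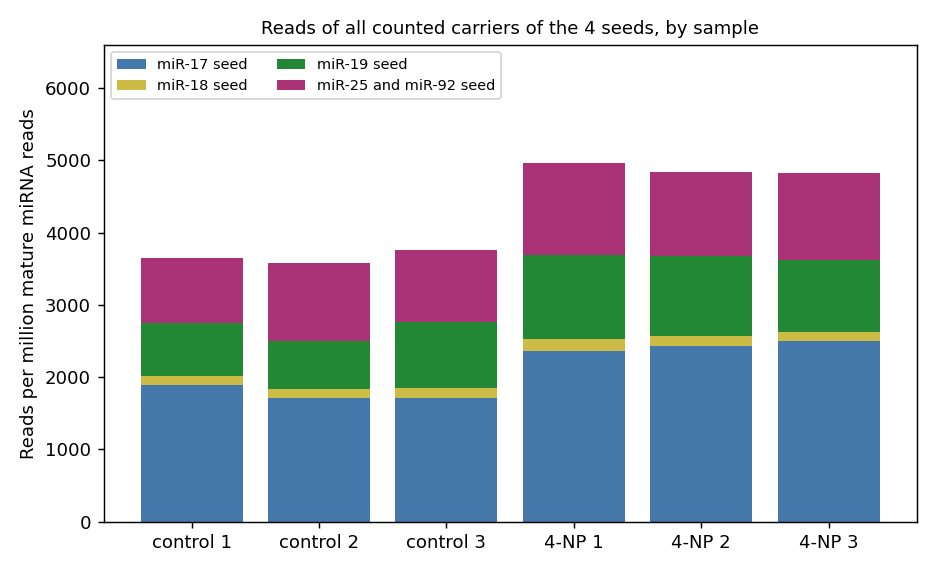
CPM of mature miRNA reads in each of the 6 samples, stacked by seed family over all counted carriers of the 4 seeds. The 3 controls total 3574 to 3759 CPM and the 3 4-NP samples 4829 to 4963 CPM, and the miR-17 family is the largest block in every sample.

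Carriers of these seeds outside both clusters and the other arm of the X-linked miR-20b hairpin made up a list of 5 related miRNAs, of which 4 passed the filter. Of these 4, 0 were called higher and 1 lower in edgeR, 0 were higher at an unadjusted p under 0.05, and DESeq2 called the same numbers. Their median log2 fold change was -0.44, and all 4 values were below 0, but those of miR-32-5p and miR-20b-5p were above 0 when 1 sample was left out (up to 0.11 and 0.21). Their difference from the guide arms was not tested.
miR-92b-3p: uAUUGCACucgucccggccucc
miR-32-5p: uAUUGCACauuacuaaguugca
miR-363-3p: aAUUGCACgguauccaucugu
miR-20b-5p: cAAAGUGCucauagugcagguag

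miR-92b-3p, which differs from miR-92a-3p by U10C and G21C over the length of the latter, had 5.42, 7.71 and 5.47 CPM in control cells and 3.48, 2.80 and 4.11 CPM in 4-NP cells. The groups did not overlap, in the direction opposite to miR-92a-3p. miR-92b-3p fell by 0.84 on the log2 scale (SE 0.21, edgeR adjusted p = 0.0332). Its call was lost in edgeR without any of control replicates 1, 2 and 3 or 4-NP replicates 1 and 2 (adjusted p from 0.0633 to 0.114), with a replicate block (0.0921) and without a filter on low counts (0.0503). miR-32-5p had 199, 138 and 183 CPM against 234, 121 and 129.8, with a log2 fold change of -0.15 ± 0.30 (SE, edgeR adjusted p = 0.763). The X-linked miR-20b-5p and miR-363-3p were scarce, at 1.22 to 4.44 and 0.685 to 1.95 CPM in the 6 samples, and neither passed the threshold (adjusted p = 0.750 and 0.210 in edgeR).

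The second arm of a hairpin can tell apart genes that make the same guide. The arms of the first cluster and of its X-linked paralogues are shown for this reason, again with bases 2 to 8 in capitals.
miR-17-1-3p (Mir17): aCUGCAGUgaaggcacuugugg
miR-17-2-3p (Mir106a): aCUGCACUgcaagcacuucuuac
miR-19b-1-5p (Mir19b1): aGUUUUGCagguuugcauccag
miR-19b-2-5p (Mir19b2): aGUUUUGCagauuugcaguucag
miR-92a-1-5p (Mir92a1): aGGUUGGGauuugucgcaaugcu
miR-92a-2-5p (Mir92a2): aGGUGGGGauuagugccauuac

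The 3 X-linked arms had 9 reads in all over the 6 samples. miR-17-2-3p had 0, 0 and 3 reads in control cells and 0, 1 and 0 after 4-NP, miR-19b-2-5p had 2 reads in control replicate 3 and 0 elsewhere, and miR-92a-2-5p had 3 in control replicate 2 and 0 elsewhere. A count of 0 allows up to 3 reads by counting error, or 0.128 to 0.150 CPM depending on the sample. The matching arms of the first cluster had 1581 (miR-17-1-3p), 208 (miR-19b-1-5p) and 511 (miR-92a-1-5p) reads in all. The X-linked arm thus held 0.252% of its pair for miR-17 (95% exact binomial interval 0.0688 to 0.645%), 0.952% for miR-19b (0.116 to 3.40%) and 0.584% for miR-92a (0.121 to 1.70%). These intervals limit the reads of these arms, not the guide reads that each gene supplied, since how much of the second arm each hairpin keeps was not measured.

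**Figure D4:**
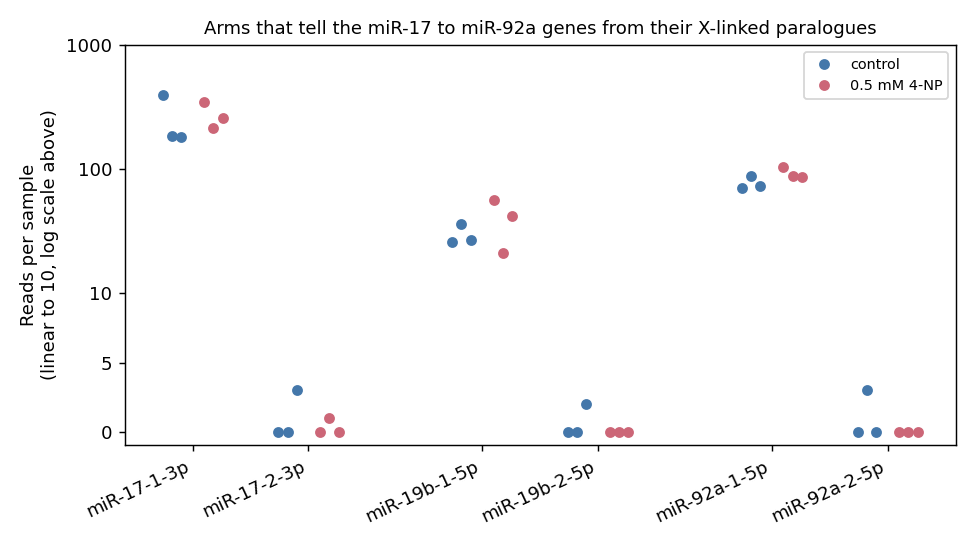
Reads per sample of the arms specific to the miR-17 to miR-92a genes and, to the right of each, of the matching X-linked arms (axis linear to 10 and logarithmic above, 1 point per sample). The X-linked arms have 0 to 3 reads in every sample, and the arms of the first cluster 21 to 394.

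Of the less abundant arms of the members, 9 were tested and none passed the adjusted threshold in edgeR. The largest log2 fold change among them was that of miR-25-5p, at 0.66 ± 0.20 (SE, edgeR adjusted p = 0.0606). It had 89, 122 and 118 reads in control cells and 148, 181 and 159 after 4-NP, or 3.80, 5.28 and 5.29 against 6.69, 9.04 and 7.26 CPM, without overlap. Its share of the reads on both arms of the miR-25 hairpin was 1.67%, 2.11% and 1.98% in the controls and 2.30%, 3.15% and 2.22% after 4-NP. This was the one hairpin of the 9 whose arm shares did not overlap between the groups. The shares were not tested or set beside those of other hairpins, so 1 of 9 cannot be judged against a background. miR-92a-1-5p, made by Mir92a1 and not by its X-linked paralogue, had 3.03, 3.81 and 3.27 CPM against 4.70, 4.39 and 3.97, and its log2 fold change of 0.35 ± 0.14 (SE, edgeR adjusted p = 0.130) was close to the 0.43 of miR-92a-3p. miR-106b-3p had 1.79, 2.03 and 2.02 CPM against 2.71, 2.65 and 2.06, a log2 fold change of 0.32 ± 0.18 (SE, edgeR adjusted p = 0.256). The remaining tested arms overlapped between the groups. Of these, miR-17-1-3p had 8.01 to 16.8 CPM, miR-18a-3p 1.84 to 2.89, miR-19a-5p 0.807 to 2.13, miR-19b-1-5p 1.05 to 2.53, miR-20a-3p 0.250 to 0.868 and miR-93-3p 0.685 to 1.26 CPM.

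The second arm was scarcest for miR-93 and miR-20a and most frequent for miR-19a. miR-93-3p made up 0.0890 ± 0.0275% of the reads on both arms in the controls and miR-20a-3p 0.102 ± 0.0413%, whereas miR-17-1-3p made up 4.94 ± 0.936% and miR-19a-5p 12.3 ± 6.19% (SD, n = 3). After 4-NP these shares were 0.0571 ± 0.0144%, 0.102 ± 0.0583%, 4.62 ± 1.22% and 8.20 ± 2.60%, each overlapping the controls.

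The count table also lists reads per precursor family, and the sources used here do not give how these relate to the mature miRNAs. The mir-17 family held 1361, 1110 and 1210 reads in the 3 controls and 1579, 1052 and 1397 in the 4-NP samples, and the mir-19 family 3023, 2604 and 3131 against 4253, 3079 and 2754. The mir-92 family held 2967, 4215 and 3260 against 4170, 3832 and 4052. Scaled to mature reads, the mir-17 family was at 53.5 ± 5.07 and 62.6 ± 9.47 CPM and the mir-19 family at 127 ± 13.9 and 157 ± 33.3 CPM, both overlapping, whereas the mir-92 family was at 152 ± 28.3 and 188 ± 3.16 CPM without overlap (SD, n = 3). They were not tested.

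The 5 miRNAs outside the clusters whose log2 CPM followed that of the summed miR-17 to miR-92a guide arms most closely were miR-30d-5p (Pearson's r = 0.995), miR-152-3p (0.983), miR-466c-5p (0.982), miR-192-5p (0.978) and miR-708-5p (0.977). They were taken from 183 miRNAs with a mean of at least 1000 reads, over 6 samples that form 2 groups and share their libraries, so these values describe the ordering only.

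Markers of other cell types also differed between the groups, and their part in the results above was not tested. The sertoli and somatic gonad markers miR-202-5p and miR-202-3p summed to 807 to 1195 CPM in control cells and 698 to 796 CPM in 4-NP cells, and neither was called in edgeR. Both of the endothelial arms of miR-126a were called lower, and their sum went from 6325 to 7615 CPM in control cells to 3234 to 3805 CPM. Of the 4 smooth muscle and myoid markers, 1 (miR-143-3p) was called lower, with sums of 120538 to 136220 and 88380 to 96688 CPM. Of the 6 germ cell markers, 5 of which were tested, 4 were called higher (the arms of miR-34b and miR-34c), with sums of 150 to 167 and 162 to 197 CPM. The most abundant germ cell marker, miR-449a-5p, was at 124 ± 8.54 CPM in control cells and 105.8 ± 13.5 CPM in 4-NP cells (SD, n = 3), a log2 fold change of -0.25 (edgeR adjusted p = 0.247). Of the 4 erythroid markers, 2 of which were tested, 1 (miR-451-5p) was called higher, with sums of 11.0 to 40.7 and 59.3 to 631 CPM. Of the 3 myeloid markers 0 were called, with sums of 8.05 to 10.5 and 8.36 to 14.1 CPM. No marker of any of these lists was at 0 in all 6 samples, and miR-202-3p, the scarce arm of the sertoli marker, was at 0 in 4-NP replicate 3.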

How the data were processed

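Small RNA libraries of 3 control and 3 4-NP samples were analysed. The authors cut the small RNA size range from a gel, added adapters that carry molecular identifiers, and deposited read counts per small RNA without normalization. The submitters' processing notes name HISAT2 and DESeq2 with no role. The miRNA database and genome build are not given in the sources used here. A second deposited column per sample, other than the counts and named for the molecular identifiers, entered no test. Counts in 2363 rows were read, 734 of them mature miRNAs, and each sample was scaled to its sum of mature reads.

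Differences were tested in R 4.3.3 with edgeR 4.0.16 (two-sided quasi-likelihood F test, TMM factors of 0.947 to 1.09, filterByExpr, no replicate block, since the study names edgeR and no block), with Benjamini-Hochberg adjustment over 549 miRNAs. Standard errors were derived from the F statistic. Replicates of a group differed by chi-square values of 154 to 942 per degree of freedom and were kept as separate samples. As alternatives, edgeR was run with other scalings (mature sum, RLE), other filters, its classic exact test, a replicate block and each sample omitted, and DESeq2 1.42.0 was run on the same counts.

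Named were all members and all related miRNAs. Among members, values per sample were given for the guide arms and some other arms, and ranges over the 6 samples for the rest. The members, lists and tests were chosen with earlier results of these data known. Sequences and gene order came from RefSeq (GRCr8), and no coordinates are given. The circRNA, lncRNA and mRNA data were not analysed here.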

Additional observations from a re-analysis of the deposited data

How the results depend on the processing

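No member was called lower under any of the 13 alternatives. The number called higher was 1 with edgeR and TMM, 2 with total-count scaling, 4 with DESeq2, 0 with the classic exact test and 0 to 2 without 1 sample. With a replicate block it was 0, and the number over all miRNAs went from 41 to 26. Same-numbered control and 4-NP samples did not deviate together (r of -0.25, -0.28 and -0.09). With 3 samples per group, these values cannot show whether same-numbered samples were prepared together, and the labels do not say. Omission of 1 sample gave 29 to 42 called higher and 51 to 66 called lower over all miRNAs. Related miRNAs called lower went from 1 to 0 with a replicate block, 0 without a filter on low counts and 0 to 1 without 1 sample. The fold of the summed guide arms was 1.33 with TMM factors and 1.34 to 1.37 without 1 sample. Of the 18 tested members, 14 kept the sign of their log2 fold change under every alternative run. The other 4, none of them called, changed sign without 1 sample and ranged from -0.10 to 0.26 (miR-106b-5p), -0.059 to 0.66 (miR-17-1-3p), -0.0054 to 0.22 (miR-18a-5p) and -0.48 to 0.23 (miR-19a-5p). Of the related miRNAs, miR-20b-5p ranged from -0.77 to 0.21 and miR-32-5p from -0.45 to 0.11. The cause was not tested. The alternatives for related miRNAs and for sums were chosen after seeing the data. The reads behind miR-20a-3p and miR-93-3p, at most 29 in any sample, limit what could be detected for these arms.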
